A study of Mus musculus with 18 samples.

Results

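The 50 genes described here act in mitosis and cytokinesis, the steps by which a cell condenses its chromosomes, pulls them apart on a spindle and divides. They were taken as a list of mouse gene symbols and looked up by Ensembl identifier in the deposited count table, where all 50 were found among 54532 genes. All 50 also passed the low-count filter that left 17833 genes to test, and all 50 still passed it when the flox reloading libraries were left out. By role they fall into 7 groups, which are mitotic entry (8 genes), spindle checkpoint and anaphase (8), centromere and kinetochore (7), chromosomal passenger complex (4), spindle motors and microtubules (10), chromosome condensation (7) and cytokinesis (6).

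RNA came from the gastrocnemius, the large calf muscle, of female C57BL/6 mice, and 18 polyadenylated RNA libraries were sequenced in 6 groups of 3. In the mice called mKO the zinc finger gene Zfp697 was deleted conditionally in skeletal muscle, while the flox/flox mice, called flox, were the comparison. Each genotype was kept in ordinary cages throughout (control), had its hindlimbs unloaded for 10 days (unloading), or was unloaded and then bore weight again for 3 days (reloading). The age of the mice, the promoter that drove the deletion and whether the 3 libraries of a group came from separate animals are not given in the sources used here, so the p-values reflect spread among these libraries alone, which may be technical.

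Entry into mitosis is driven by the kinase Cdk1 bound to cyclins A and B, and exit by the anaphase promoting complex, which marks those cyclins for destruction. Separase cuts the chromosome glue once the spindle checkpoint is satisfied. Muscle fibres are cells with many nuclei that no longer divide, so division in adult muscle belongs to the mononuclear cells between them, among them satellite cells, fibro-adipogenic progenitors, endothelial cells and macrophages. Transcripts of these genes accumulate shortly before division and are removed after it, and many of their promoters carry a cell cycle homology region and CCAAT boxes. In RNA from whole muscle, fewer dividing cells and less RNA per dividing cell cannot be told apart.

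Zfp697 itself measured 1.05, 1.31 and 1.25 CPM at control, 2.47, 1.09 and 1.41 CPM at unloading and 1.6, 1.95 and 1.47 CPM at reloading in mKO muscle. In flox muscle Zfp697 measured 1, 0.984 and 1.6 CPM at control, 1.58, 1.74 and 1.61 CPM at unloading and 2.79, 2.33 and 2.57 CPM at reloading. The genotypes overlapped at control and unloading and not at reloading, and counts over the whole gene do not test the labels, since the part that was deleted is not given in the sources used here. Depth was even, with 45069595 to 51592566 counts per library, but the members were rare transcripts. Levels are given as CPM, counts scaled to library size after TMM scaling, and the 50 members summed to between 71.9 and 318 CPM per library, or 3164 to 17179 counts. Exons of 6 members overlap those of another gene by more than 10% (Kif20a 33.2% with Cdc23, Ube2c 22.8% with the fast troponin C gene Tnnc2, Kif4 15.1% with Pdzd11, Ncapg 13.4% with Lcorl, Ccna2 12.5% with Exosc9 and Prc1 11.1% with Rccd1). No strand option is shown for the counting, so reads of an antisense neighbour cannot be told apart from theirs. Among counts of 1 to 20, 79.8% were even in the members and 63.9% over all genes, and whether each fragment was counted once was not tested. Markers of muscle fibres (Acta1, Ckm, Ttn and 5 others) summed to between 111477 and 157693 CPM per library.

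Reloading was the condition in which these genes stood apart. Summed over the 50 members, mKO control muscle held 86.6 ± 6.4 CPM, mKO unloading muscle 73.8 ± 3.3 CPM and mKO reloading muscle 122 ± 9.2 CPM (SD, n = 3 each). Flox control muscle held 79.7 ± 5.2 CPM, flox unloading muscle 79.4 ± 9.5 CPM and flox reloading muscle 296 ± 38.7 CPM. Flox reloading was therefore the highest group by far, and mKO reloading came next, above all control and unloading libraries. The 3 mKO reloading libraries held 128, 127 and 112 CPM, against 318, 318 and 251 CPM in the 3 flox reloading libraries, so the genotypes did not overlap. Within flox reloading, replicate 3 was the lowest of the 3 libraries for 43 of 50 members, against 34.4% of all tested genes. Within flox unloading, replicate 3 was the highest for 37 of 50 members, against 34.0% of all tested genes.

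**Figure D1:**
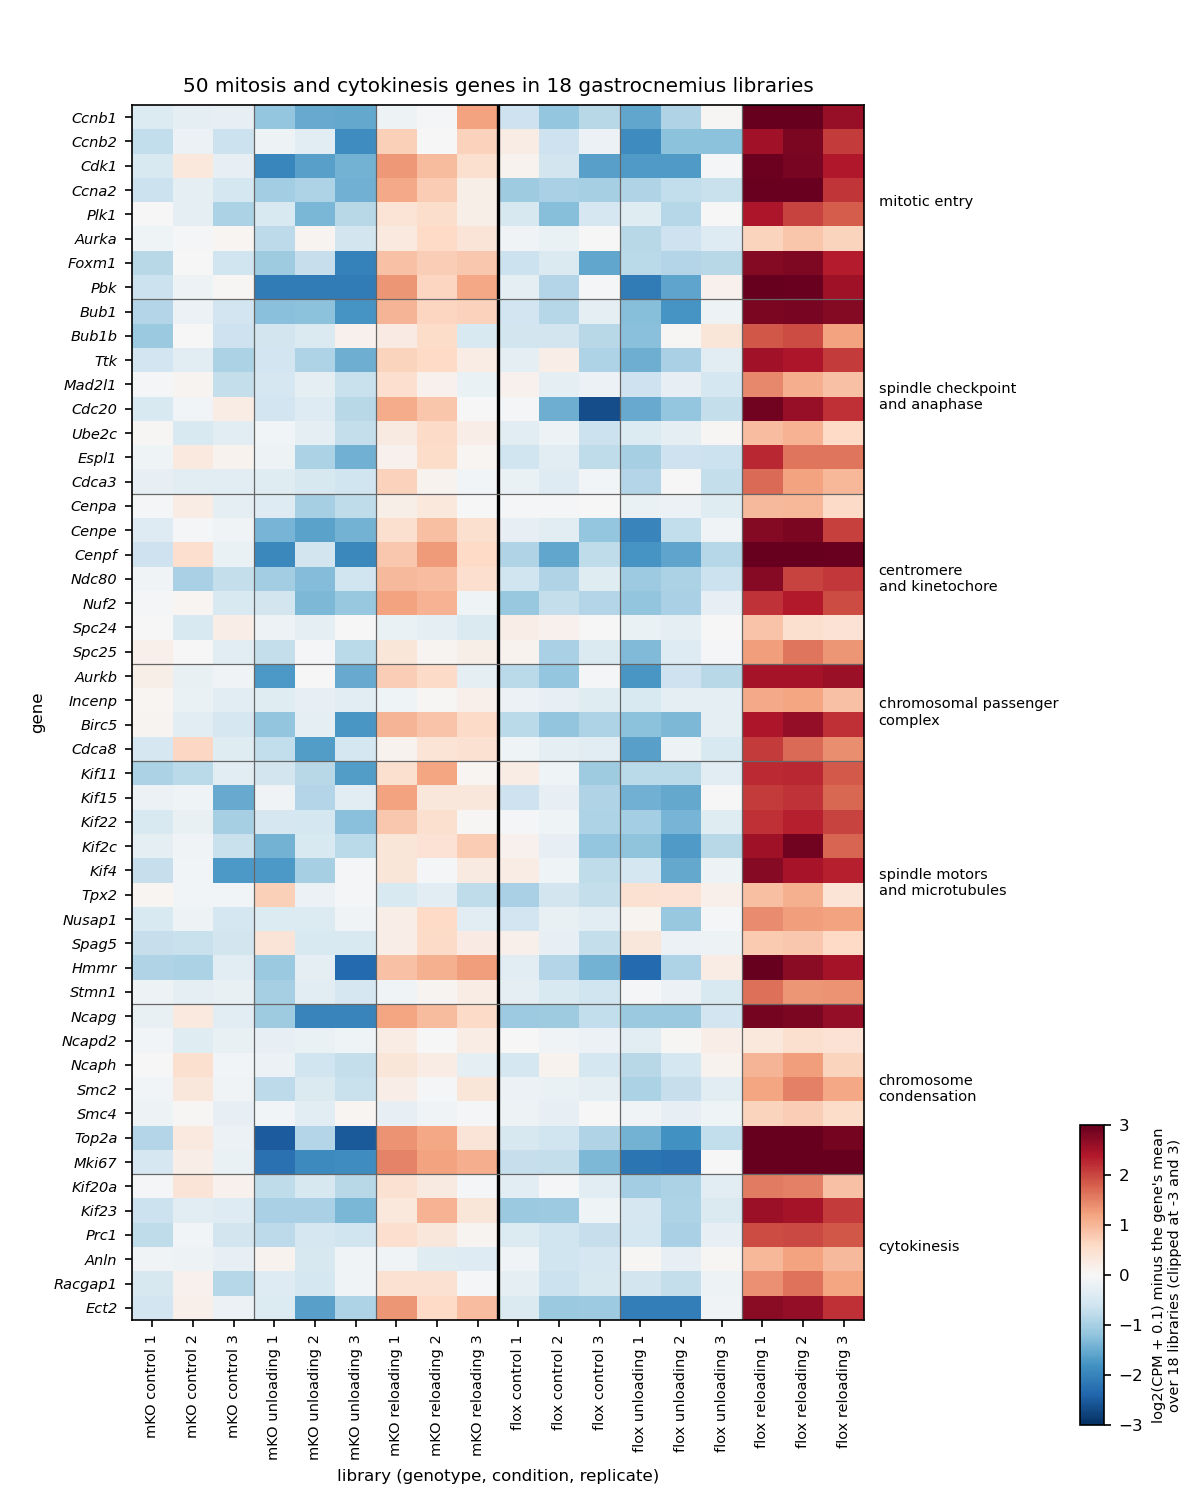
Level of each of the 50 members (rows, grouped by role) in each of the 18 libraries (columns, mKO left of flox), as log2(CPM + 0.1) minus the gene's mean over all libraries, with colours clipped at -3 and 3. The 3 flox reloading columns are red in almost every row and the 3 mKO reloading columns are paler.

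Reloading was first set against unloading in each genotype, to see which members respond when weight returns. A gene was called when its p in the quasi-likelihood F test of edgeR, adjusted over the 17833 tested genes by the Benjamini-Hochberg method, was under 0.05, and the error after each log2 change is the standard error of that fit (3 libraries per group). In mKO muscle 34 of 50 members were higher at reloading and 1 was lower, where 9.53% of all tested genes were called higher and 8.81% lower. In flox muscle 49 of 50 were higher and 0 lower, where 17% of all tested genes were called higher and 14.9% lower, and only Tpx2 was not called. The median change over the 50 members was 1.39 in mKO and 3.00 in flox on the log2 scale, while over all tested genes it was 0.01 in mKO and 0.00 in flox. Every reloading library exceeded every unloading library for 40 members in mKO (16.6% of all tested genes) and for 49 in flox (23.1%). Without mKO unloading replicate 3 the mKO count fell to 26 of 50.

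The genotypes were then set against each other at reloading. Of the 50 members 43 were lower in mKO and 0 higher, where 3.85% of all tested genes were called lower and 1.06% higher. The median difference, mKO minus flox, was -1.63 on the log2 scale over the members and 0.00 over all tested genes. For all 50 members each mKO reloading library lay below each flox reloading library, which 12.8% of all tested genes did. The mean of mKO reloading as a percentage of flox reloading had a median of 32.2% over the members, running from 13.9% for Ccnb1, a B-type cyclin, to 83.5% for Ncapd2, a condensin subunit, and 42 members were under 50%. The 7 members not called were Aurka, Ube2c, Kif15, Spag5, Hmmr, Ncapd2 and Ncaph. The count fell to 17 without mKO reloading replicate 3 and to 23 without flox reloading replicate 2, and 16 of the 43 were called whichever single library was left out.

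**Figure D2:**
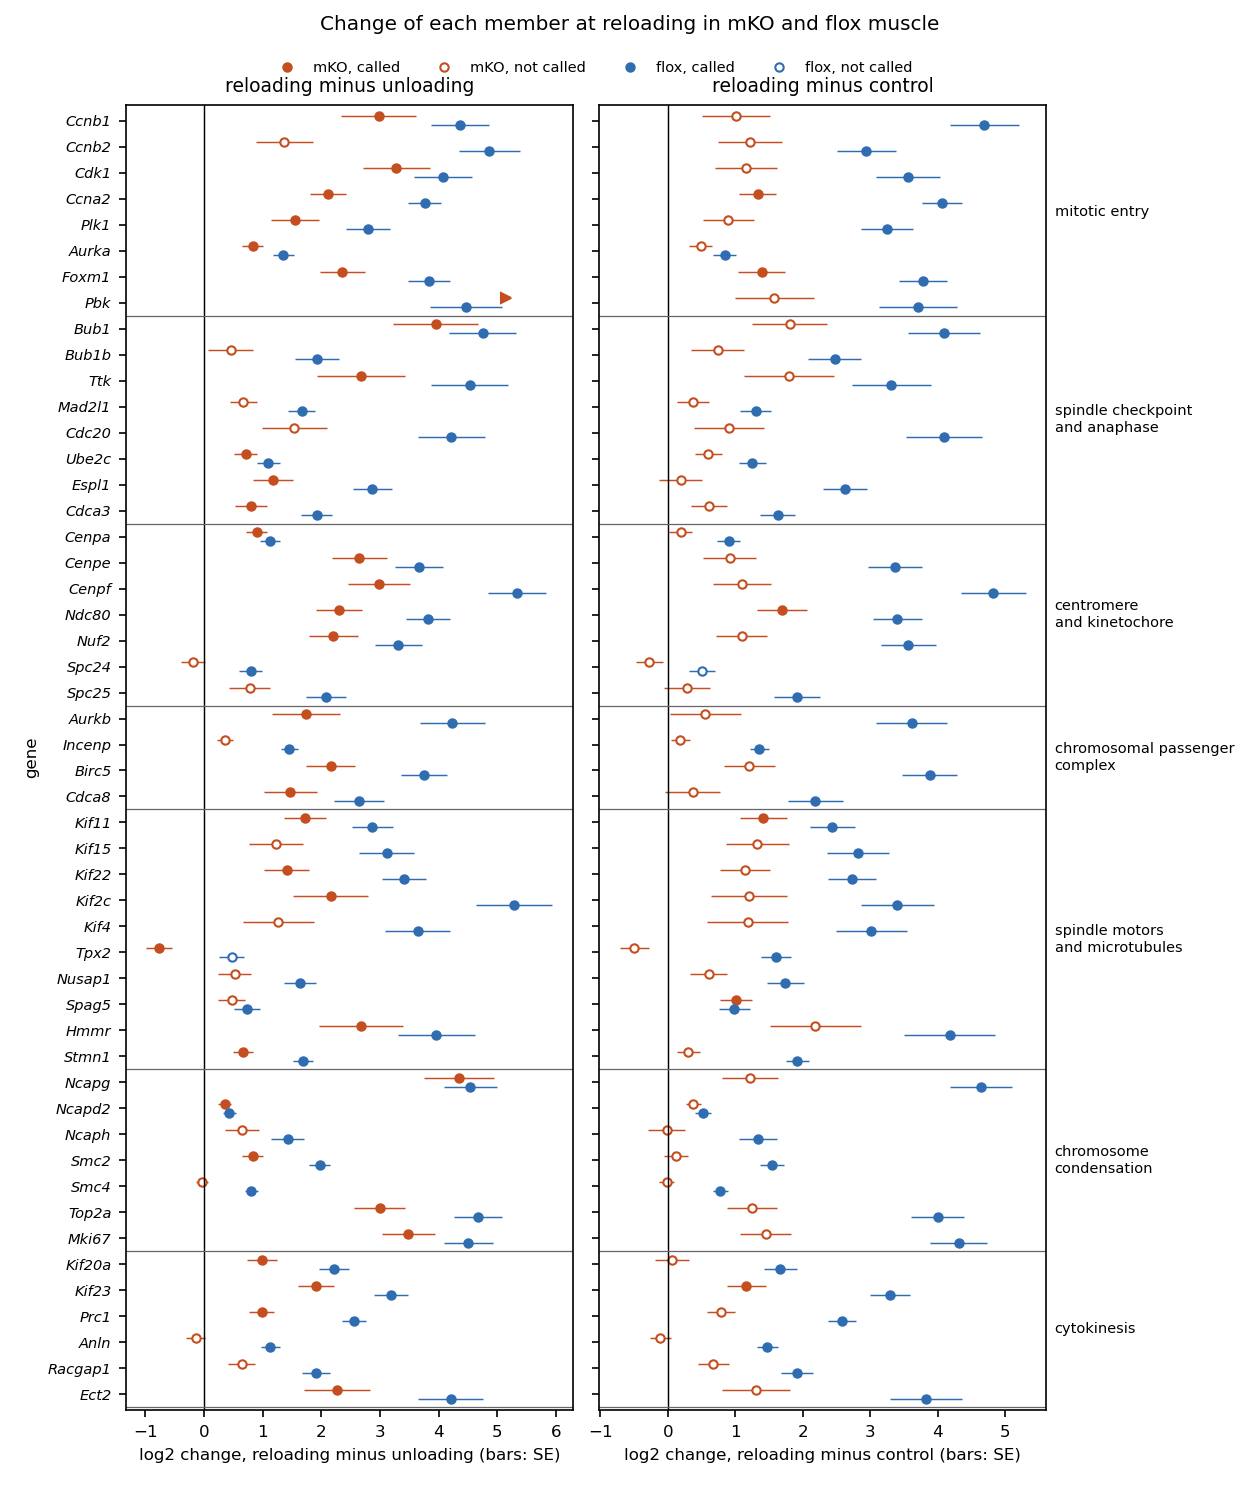
Change of each member at reloading, as log2 fold change with its standard error, against unloading (left) and against control (right), in mKO (orange, upper point of each pair) and flox muscle (blue, lower point). Filled points were called by edgeR, and the triangle for Pbk in mKO marks a lower bound because all 3 mKO unloading libraries were at 0. The flox point lies right of the mKO point in nearly every pair.

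Promoter sequence was compared because the members moved together. RefSeq windows (GRCm38.p6) of 250 bases before to 50 bases after the gene start were on hand for 40 of the 50 members. The 2 motifs searched, on both strands, were the cell cycle homology region (TTTGAA, its reverse complement TTCAAA, or TTCGAA) and the CCAAT box (CCAAT or its reverse complement ATTGG), which can overlap each other. The cell cycle homology letters were in 33 of the 40 windows (82.5%), against 21.7% of 27025 genes with a window and 57.1% of 49 other mitosis genes. CCAAT was in 31 of 40 (77.5%), against 41.1% of all genes and 69.4% of the other mitosis genes. At least 2 copies were in 52.5%, against 13.3% of all genes and 40.8% of the other mitosis genes. Both motifs were in 72.5% of the members' windows, in 44.9% of those of the other mitosis genes and in 8.61% of all. The 7 without the homology letters (Ccnb1, Mad2l1, Cenpe, Nuf2, Birc5, Nusap1 and Ncaph) had a median flox change at reloading of 3.32, and the 33 with them 3.12. A match is a description of these letters and not a bound site.

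Of the members with the largest or smallest flox change in their role, 10 had a window, and the 250 bases before the start are shown for the 6 in which they lie outside the annotated gene. Ccnb2 (chr9:70421555-70421804), Cenpf (chr1:189688087-189688336), Top2a (chr11:99024190-99024439) and Ect2 (chr3:27153879-27154128) had the largest change of their roles, and Aurka (chr2:172370571-172370820) and Anln (chr9:22389207-22389456) the smallest. All 6 are read 5′ to 3′ on the minus strand, and capitals mark the matches to either motif.
Ccnb2: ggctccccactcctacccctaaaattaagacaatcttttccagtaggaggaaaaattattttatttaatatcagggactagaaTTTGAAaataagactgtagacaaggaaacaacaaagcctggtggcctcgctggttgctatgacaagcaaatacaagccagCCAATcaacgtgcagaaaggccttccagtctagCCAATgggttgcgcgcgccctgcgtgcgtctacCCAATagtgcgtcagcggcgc
Cenpf: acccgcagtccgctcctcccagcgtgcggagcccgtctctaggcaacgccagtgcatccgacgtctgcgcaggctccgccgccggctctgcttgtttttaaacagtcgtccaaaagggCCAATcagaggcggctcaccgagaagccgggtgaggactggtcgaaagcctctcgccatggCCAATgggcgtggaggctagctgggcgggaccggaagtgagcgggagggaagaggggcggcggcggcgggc
Top2a: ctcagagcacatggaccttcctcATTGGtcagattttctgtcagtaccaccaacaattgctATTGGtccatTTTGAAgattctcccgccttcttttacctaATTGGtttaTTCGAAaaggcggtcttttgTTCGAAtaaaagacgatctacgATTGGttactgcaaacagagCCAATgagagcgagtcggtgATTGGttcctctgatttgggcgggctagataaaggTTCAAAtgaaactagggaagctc
Ect2: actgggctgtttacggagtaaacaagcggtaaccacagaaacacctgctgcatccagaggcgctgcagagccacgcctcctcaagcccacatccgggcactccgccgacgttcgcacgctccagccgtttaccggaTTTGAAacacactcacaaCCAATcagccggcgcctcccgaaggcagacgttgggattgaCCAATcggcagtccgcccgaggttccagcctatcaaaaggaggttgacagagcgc
Aurka: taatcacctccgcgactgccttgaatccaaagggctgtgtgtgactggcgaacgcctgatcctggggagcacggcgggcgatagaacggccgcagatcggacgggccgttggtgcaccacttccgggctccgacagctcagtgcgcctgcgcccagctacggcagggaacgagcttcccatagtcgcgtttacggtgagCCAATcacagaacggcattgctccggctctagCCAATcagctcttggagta
Anln: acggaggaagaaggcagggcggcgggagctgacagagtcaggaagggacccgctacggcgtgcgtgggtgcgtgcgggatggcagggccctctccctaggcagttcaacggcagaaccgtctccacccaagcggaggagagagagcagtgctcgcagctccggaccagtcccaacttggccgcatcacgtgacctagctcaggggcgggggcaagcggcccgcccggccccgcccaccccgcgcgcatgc
The Top2a stretch held 4 homology matches and 6 CCAAT matches, Ccnb2 held 1 and 3, and Ect2 held 1 and 2. Ccnb2 and Ect2 were each counted with 2 homology matches, of which these bases show 1. Cenpf and Aurka held 0 and 2 in these bases, and the 1 homology match counted for each lay outside them. In the Anln stretch there were 0 of either, and its 2 homology matches lay outside these bases.

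The 8 mitotic entry genes are the cyclins Ccnb1, Ccnb2 and Ccna2, their kinase Cdk1, the kinases Plk1, Aurka and Pbk, and Foxm1, a transcription factor of late cell cycle genes. At reloading against unloading 7 of 8 rose in mKO (all but Ccnb2) and 8 of 8 in flox, with medians of 2.24 and 3.96. Ccnb2, the cyclin with the largest change, measured 0.215, 0.362 and 0.233 CPM in control, 0.371, 0.319 and 0.0427 CPM in unloaded and 0.754, 0.417 and 0.737 CPM in reloaded muscle in the mKO genotype. Ccnb2 in flox measured 0.511, 0.241 and 0.36 CPM in control, 0.0412, 0.124 and 0.123 CPM in unloaded and 2.9, 3.58 and 2.13 CPM in reloaded muscle. The flox reloading values were the highest of all and did not overlap any other group, while in mKO the 3 reloading values lay above the control and unloading values by less. From unloading to reloading Ccnb2 changed by 1.37 ± 0.48 (SE) in mKO, which did not pass (adjusted p = 0.0561), and by 4.86 ± 0.52 in flox (adjusted p = 2.46e-06). At reloading it was lower in mKO by a log2 difference of -2.17 ± 0.41 (adjusted p = 0.00608), a call that ended without flox reloading replicate 2.

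Aurka, the centrosome kinase that builds the spindle poles, had the highest level per kilobase and the smallest flox change of its role. It measured 4.57, 4.77 and 5.23 CPM in control, 2.86, 5.23 and 3.38 CPM in unloaded and 6.15, 7.64 and 6.58 CPM in reloaded muscle in the mKO genotype. Aurka in flox measured 4.6, 4.35 and 5 CPM in control, 2.74, 3.21 and 3.8 CPM in unloaded and 7.98, 9 and 7.99 CPM in reloaded muscle. Reloading libraries were above unloading libraries in both genotypes, and the mKO and flox reloading values came close without overlapping. It rose by 0.83 ± 0.18 in mKO and 1.36 ± 0.18 in flox (adjusted p = 0.00343 and 1.93e-05), and mKO minus flox at reloading was -0.29 ± 0.17, not called (adjusted p = 0.368).

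Ccnb1 had the largest estimated genotype difference of all 50 members, and is described here because of it. Its counts were 12, 16 and 42 in the mKO reloading libraries, against 197, 208 and 128 in the flox reloading libraries. It stood at 0.274, 0.303 and 0.86 CPM in mKO reloading and at 4.02, 3.85 and 2.45 CPM in flox reloading, with mKO replicate 3 above the other 2. The log2 difference was -2.83 ± 0.43 (adjusted p = 0.00165). Cdk1 differed by -1.88 ± 0.42, Ccna2 by -2.08 ± 0.25, Plk1 by -1.88 ± 0.34 and Foxm1 by -1.92 ± 0.31, all called.

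Pbk, a mitotic kinase, was at 0 counts in all 3 mKO unloading libraries, and had 42, 30 and 42 counts in the mKO reloading libraries. A fold against 0 is a lower bound, and set against a floor of 3 counts over the group Pbk was at least 35.7-fold higher at mKO reloading than at mKO unloading. This floor takes each count as a separate fragment, which was not tested. If fragments were counted more than once, the bound would be lower. In flox it had 180, 174 and 124 counts at reloading and 0, 2 and 18 counts at unloading. The flox groups did not overlap, and the change was 4.47 ± 0.62 (adjusted p = 5.21e-05). Placing Pbk at its bound left the mKO median of the 50 members at 1.39.

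The spindle checkpoint and anaphase role holds the checkpoint kinases Bub1 and Ttk, the checkpoint proteins Bub1b and Mad2l1, the activator Cdc20 and the ubiquitin carrier Ube2c of the anaphase promoting complex, separase (Espl1), which cuts the chromosome glue, and Cdca3. At reloading 5 of 8 rose in mKO and 8 of 8 in flox, with medians of 0.99 and 2.40. Those that did not pass in mKO were Bub1b at 0.46 ± 0.39, Mad2l1 at 0.68 ± 0.24 and Cdc20 at 1.54 ± 0.55. Bub1 measured 0.0858, 0.201 and 0.127 CPM in control, 0.0437, 0.0455 and 0 CPM in unloaded and 0.594, 0.436 and 0.451 CPM in reloaded muscle in the mKO genotype. Bub1 in flox measured 0.128, 0.0875 and 0.18 CPM in control, 0.0412, 0 and 0.204 CPM in unloaded and 2.31, 2.35 and 2.18 CPM in reloaded muscle. Its 3 flox reloading values were close together and far above every library outside reloading, and mKO reloading lay between. The change was 3.95 ± 0.73 in mKO (adjusted p = 0.00115) and 4.75 ± 0.57 in flox (adjusted p = 7.7e-06), and mKO minus flox at reloading was -2.21 ± 0.46 (adjusted p = 0.00958). That last call ended without mKO reloading replicate 3 and without flox reloading replicate 2.

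Ttk had the lowest mean CPM of the 50, with 0.0858, 0.121 and 0.0423 CPM in control, 0.0873, 0.0455 and 0 CPM in unloaded and 0.343, 0.322 and 0.225 CPM in reloaded muscle in the mKO genotype. Ttk in flox measured 0.128, 0.219 and 0.045 CPM in control, 0, 0.0414 and 0.123 CPM in unloaded and 1.49, 1.39 and 1.09 CPM in reloaded muscle. No library outside reloading reached the lowest mKO reloading value, and the 2 reloading groups did not overlap. It changed by 2.68 ± 0.75 in mKO (adjusted p = 0.0179), a call that ended without mKO unloading replicate 3, and by 4.53 ± 0.65 in flox (adjusted p = 4.76e-05). The genotype difference at reloading was -2.15 ± 0.52 (adjusted p = 0.0236), and leaving out mKO reloading replicate 1 or 3 or flox reloading replicate 1 or 2 ended the call.

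Ube2c had the highest level per kilobase and the smallest flox change of this role, and its exons overlap those of Tnnc2, an abundant fibre gene on the other strand. It measured 4.21, 2.98 and 3.26 CPM in control, 3.84, 3.37 and 2.44 CPM in unloaded and 4.94, 6.16 and 4.71 CPM in reloaded muscle in the mKO genotype. Ube2c in flox measured 3.26, 3.7 and 2.57 CPM in control, 3.05, 3.33 and 4.21 CPM in unloaded and 7.91, 8.56 and 6.23 CPM in reloaded muscle. The reloading values exceeded the unloading values in both genotypes, and the highest mKO reloading value came within reach of the lowest flox one. Ube2c rose by 0.71 ± 0.20 in mKO (adjusted p = 0.0177) and 1.10 ± 0.20 in flox (adjusted p = 0.000345), and the mKO call ended when either mKO unloading replicate 3 or mKO reloading replicate 2 was left out. The genotype difference of -0.52 ± 0.19 was not called (adjusted p = 0.128), whereas the other 7 genes of the role were lower in mKO, among them Cdc20 at -1.99 ± 0.48, Espl1 at -1.69 ± 0.30 and Mad2l1 at -1.01 ± 0.22.

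**Figure D3:**
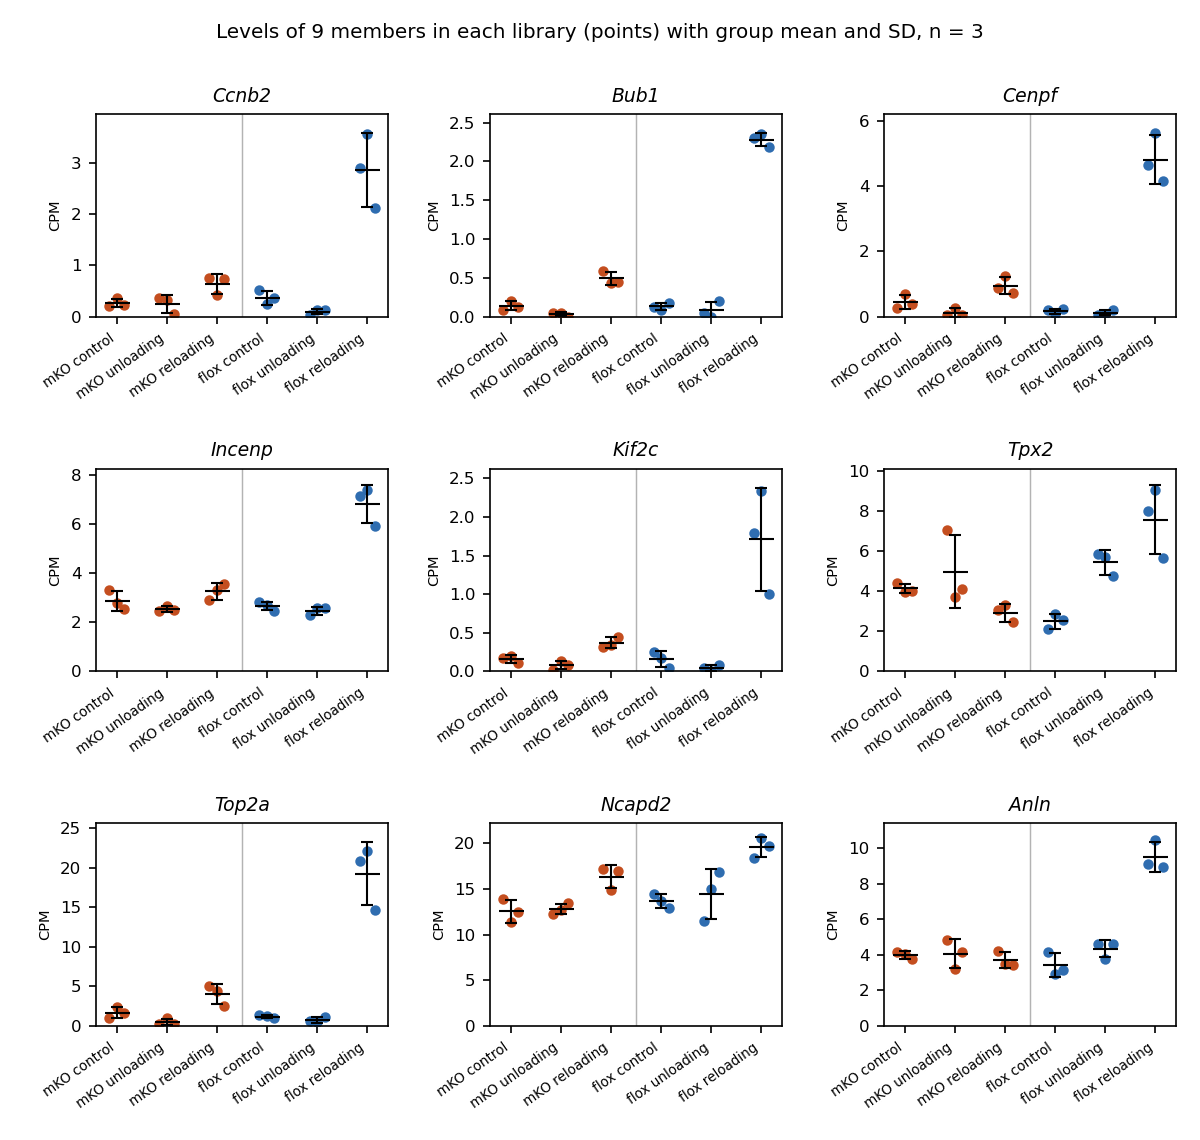
CPM of 9 members in each library (points, mKO orange and flox blue) with the group mean and SD (black, n = 3), on linear axes that start at 0. Ccnb2, Bub1, Cenpf, Kif2c and Top2a are near the axis outside reloading and highest in flox reloading. Incenp, Tpx2, Ncapd2 and Anln have a level in every group, which the flox reloading mean exceeds by a smaller fold. For Tpx2 the flox reloading points overlap those of both unloading groups.

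The kinetochore links each chromosome to spindle microtubules, and the centromere and kinetochore role holds the centromeric histone Cenpa, the motor Cenpe, Cenpf, and the 4 subunits of the Ndc80 complex (Ndc80, Nuf2, Spc24 and Spc25), which grips the microtubule. At reloading 5 of 7 rose in mKO and 7 of 7 in flox, with medians of 2.21 and 3.32. Cenpf had the largest change of all 50 members in flox. It measured 0.258, 0.684 and 0.381 CPM in control, 0.0437, 0.273 and 0.0427 CPM in unloaded and 0.868, 1.23 and 0.737 CPM in reloaded muscle in the mKO genotype. Cenpf in flox measured 0.192, 0.0875 and 0.225 CPM in control, 0.0617, 0.0827 and 0.204 CPM in unloaded and 4.65, 5.63 and 4.16 CPM in reloaded muscle. The lowest flox reloading value was above the highest mKO reloading value by a wide margin, and both were above their unloading values. The change was 2.98 ± 0.53 in mKO (adjusted p = 0.000832) and 5.34 ± 0.50 in flox (adjusted p = 6.61e-07), and mKO minus flox at reloading was -2.34 ± 0.39 (adjusted p = 0.00266).

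The 4 subunits of the Ndc80 complex had estimates of different size. Ndc80 and Nuf2 rose by 2.30 ± 0.40 and 2.21 ± 0.42 in mKO and by 3.82 ± 0.38 and 3.32 ± 0.39 in flox. Spc25 changed by 0.78 ± 0.35 in mKO, not called, and rose by 2.08 ± 0.34 in flox. Spc24 measured 1.46, 1.03 and 1.67 CPM in control, 1.29, 1.18 and 1.43 CPM in unloaded and 1.23, 1.16 and 1.04 CPM in reloaded muscle in the mKO genotype. Spc24 in flox measured 1.68, 1.57 and 1.44 CPM in control, 1.23, 1.18 and 1.43 CPM in unloaded and 2.67, 2.04 and 1.97 CPM in reloaded muscle. The mKO values overlapped across all 3 conditions, and only flox reloading stood higher. Spc24 changed by -0.19 ± 0.21 in mKO, not called (adjusted p = 0.583), and rose by 0.80 ± 0.20 in flox (adjusted p = 0.00479), with a genotype difference of -0.96 ± 0.20 at reloading (adjusted p = 0.00998). That genotype call ended without mKO reloading replicate 3 or flox reloading replicate 1, and when the fit held only the compared groups.

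Cenpa, the member of the role with the highest level per kilobase, measured 3.5, 4.24 and 2.98 CPM in control, 2.73, 1.75 and 2.07 CPM in unloaded and 4.09, 4.51 and 3.63 CPM in reloaded muscle in the mKO genotype. Cenpa in flox measured 3.54, 3.43 and 3.62 CPM in control, 3.11, 3.16 and 2.78 CPM in unloaded and 7.1, 7.26 and 5.42 CPM in reloaded muscle. Its 3 mKO unloading values were the lowest of the 18, and flox reloading was the highest group. Cenpa rose by 0.90 ± 0.17 in mKO (adjusted p = 0.00179) and 1.13 ± 0.17 in flox (adjusted p = 7.11e-05). It was lower in mKO at reloading (log2 difference -0.69 ± 0.17, adjusted p = 0.0212), a call that ended without mKO reloading replicate 1 or 3 or flox reloading replicate 1 or 2, and when the fit held only the compared groups. The kinetochore motor Cenpe differed by -2.04 ± 0.36.

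The 4 subunits of the chromosomal passenger complex are the kinase Aurkb, the scaffold Incenp, survivin (Birc5) and borealin (Cdca8), and together they correct faulty attachments and later sit at the division plane. Of these, 3 of 4 rose in mKO at reloading and 4 of 4 in flox, and 4 of 4 were lower in mKO than in flox. Aurkb measured 0.429, 0.302 and 0.339 CPM in control, 0.0437, 0.364 and 0.0641 CPM in unloaded and 0.686, 0.606 and 0.287 CPM in reloaded muscle in the mKO genotype. Aurkb in flox measured 0.17, 0.109 and 0.36 CPM in control, 0.0412, 0.207 and 0.163 CPM in unloaded and 2.55, 2.58 and 2.76 CPM in reloaded muscle. The flox reloading values were tight and far above the rest, while in mKO 1 reloading value lay below the highest unloading value. It rose by 1.74 ± 0.58 in mKO (adjusted p = 0.0455), a call lost in 12 of the 18 fits without 1 library, and by 4.23 ± 0.55 in flox (adjusted p = 1.85e-05). The genotype difference was -2.32 ± 0.47 (adjusted p = 0.00888), not called without mKO reloading replicate 3.

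Incenp had the highest level per kilobase of the 4. It measured 3.3, 2.78 and 2.52 CPM in control, 2.45, 2.66 and 2.5 CPM in unloaded and 2.9, 3.3 and 3.56 CPM in reloaded muscle in the mKO genotype. Incenp in flox measured 2.81, 2.69 and 2.48 CPM in control, 2.28, 2.56 and 2.57 CPM in unloaded and 7.12, 7.39 and 5.92 CPM in reloaded muscle. All libraries outside flox reloading fell between 2.28 and 3.56 CPM, a band that flox reloading left upward. The change at reloading was 0.36 ± 0.14 in mKO, not called (adjusted p = 0.0858), and 1.46 ± 0.14 in flox (adjusted p = 8.37e-07), and the genotype difference was -1.06 ± 0.14 (adjusted p = 0.000775). Birc5 differed by -1.70 ± 0.34 and Cdca8 by -1.52 ± 0.39.

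Among the spindle motor and microtubule genes, the kinesins Kif11, Kif15, Kif22, Kif2c and Kif4 move or trim microtubules and chromosomes, and Tpx2, Nusap1, Spag5, Hmmr and Stmn1 bind spindle microtubules or tubulin. At reloading 5 of 10 rose and 1 fell in mKO, while 9 of 10 rose in flox. Kif2c, which depolymerises microtubules at kinetochores, measured 0.172, 0.201 and 0.106 CPM in control, 0.0218, 0.137 and 0.0855 CPM in unloaded and 0.32, 0.341 and 0.451 CPM in reloaded muscle in the mKO genotype. Kif2c in flox measured 0.256, 0.175 and 0.045 CPM in control, 0.0412, 0 and 0.0817 CPM in unloaded and 1.8, 2.33 and 0.996 CPM in reloaded muscle. Its flox reloading values spread widely, replicate 3 being the lowest, and still cleared every other library. The change was 2.16 ± 0.64 in mKO (adjusted p = 0.0238) and 5.29 ± 0.65 in flox (adjusted p = 9.49e-06), with a genotype difference of -2.20 ± 0.48 (adjusted p = 0.0132). The mKO call ended without mKO unloading replicate 1 or 3 or mKO reloading replicate 3, and the genotype call without mKO reloading replicate 1 or 3 or flox reloading replicate 2.

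Tpx2, which activates Aurka on the spindle, was the exception among the 50. It measured 4.4, 3.98 and 4.02 CPM in control, 7.05, 3.73 and 4.12 CPM in unloaded and 3.04, 3.32 and 2.44 CPM in reloaded muscle in the mKO genotype. Tpx2 in flox measured 2.11, 2.84 and 2.54 CPM in control, 5.85, 5.71 and 4.74 CPM in unloaded and 7.98, 9.02 and 5.67 CPM in reloaded muscle. In flox the level was higher at unloading than at control in every library and higher again at reloading in 2 of 3, while in mKO the reloading values were the lowest. Tpx2 was the 1 member that fell from unloading to reloading in mKO, by 0.76 ± 0.22 on the log2 scale (adjusted p = 0.0212), and this call ended without mKO unloading replicate 1, the highest of its group, or mKO reloading replicate 3. Its change of 0.48 ± 0.21 in flox was not called (adjusted p = 0.0938). At reloading mKO was lower (log2 difference -1.37 ± 0.22, adjusted p = 0.0023). Stmn1, which binds free tubulin, was lower in mKO (log2 difference -1.39 ± 0.17) and so was Kif4, a chromosome-bound motor (log2 difference -2.55 ± 0.51), while Spag5, a spindle protein, differed by -0.39 ± 0.23 without a call.

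The chromosome condensation role holds the condensin subunits Ncapg, Ncapd2, Ncaph, Smc2 and Smc4, which coil chromosomes, Top2a, the topoisomerase that untangles DNA, and Mki67, a chromosome surface protein and common marker of dividing cells. At reloading 5 of 7 rose in mKO and 7 of 7 in flox, with medians of 0.83 and 1.98. Top2a measured 1.01, 2.37 and 1.69 CPM in control, 0.262, 1 and 0.256 CPM in unloaded and 5.07, 4.43 and 2.56 CPM in reloaded muscle in the mKO genotype. Top2a in flox measured 1.36, 1.25 and 0.99 CPM in control, 0.659, 0.476 and 1.12 CPM in unloaded and 20.9, 22.1 and 14.7 CPM in reloaded muscle. The mKO reloading values were the highest of their genotype yet below every flox reloading value. The change was 3.00 ± 0.43 in mKO (adjusted p = 0.000151) and 4.67 ± 0.41 in flox (adjusted p = 3.78e-07), and the genotype difference was -2.26 ± 0.35 (adjusted p = 0.00184). Mki67 had a genotype difference of -2.07 ± 0.36.

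Among the condensin subunits Ncapd2 had the smallest flox change of all 50 members. Ncapd2 measured 13.9, 11.4 and 12.5 CPM in control, 12.3, 12.7 and 13.4 CPM in unloaded and 17.2, 14.9 and 17 CPM in reloaded muscle in the mKO genotype. Ncapd2 in flox measured 14.5, 13.7 and 12.9 CPM in control, 11.5, 15.1 and 16.9 CPM in unloaded and 18.4, 20.6 and 19.8 CPM in reloaded muscle. Flox reloading lay above every other library, by a small margin over mKO reloading. It rose by 0.35 ± 0.12 in mKO (adjusted p = 0.041), a call lost in 8 of the 18 fits without 1 library, and by 0.43 ± 0.11 in flox (adjusted p = 0.00727), with a genotype difference of -0.26 ± 0.11, not called (adjusted p = 0.212). Ncapg rose by 4.36 ± 0.60 in mKO and 4.54 ± 0.45 in flox and was lower in mKO at reloading (log2 difference -2.0 ± 0.37).

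Smc4, a core subunit of condensin, measured 11.5, 13.3 and 10.8 CPM in control, 12.3, 10.2 and 13.5 CPM in unloaded and 10.9, 12 and 12.3 CPM in reloaded muscle in the mKO genotype. Smc4 in flox measured 11.7, 10.9 and 13.1 CPM in control, 12.1, 10.9 and 11.8 CPM in unloaded and 20.7, 21.5 and 18.9 CPM in reloaded muscle. The 15 libraries outside flox reloading overlapped one another, and the 3 flox reloading libraries stood above them all. In mKO it changed by -0.03 ± 0.11, not called (adjusted p = 0.883), and in flox it rose by 0.81 ± 0.11 (adjusted p = 2.45e-05). The genotype difference at reloading was -0.80 ± 0.11 (adjusted p = 0.00111). Its partner Smc2 rose in both, by 0.83 ± 0.18 in mKO and 1.98 ± 0.18 in flox.

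Among the cytokinesis genes, Ect2 switches on RhoA at the cell equator, Racgap1 and Kif23 form the centralspindlin complex that recruits it, Prc1 bundles the midzone microtubules, Kif20a is a midzone motor, and anillin (Anln) holds the contractile ring together. At reloading 4 of 6 rose in mKO and 6 of 6 in flox, and 6 of 6 were lower in mKO than in flox, with a median difference of -1.50. Ect2 measured 0.3, 0.563 and 0.423 CPM in control, 0.349, 0.091 and 0.214 CPM in unloaded and 1.39, 0.796 and 1.02 CPM in reloaded muscle in the mKO genotype. Ect2 in flox measured 0.341, 0.175 and 0.18 CPM in control, 0.0412, 0.0414 and 0.449 CPM in unloaded and 3.77, 3.59 and 2.62 CPM in reloaded muscle. In flox the third unloading library was far above the other 2 and still far below reloading. The change was 2.27 ± 0.56 in mKO (adjusted p = 0.00846) and 4.21 ± 0.55 in flox (adjusted p = 1.99e-05). The genotype difference of -1.64 ± 0.45 passed narrowly (adjusted p = 0.0445) and was lost in 12 of the 18 fits without 1 library.

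Anln had the highest level per kilobase and the smallest flox change of the role. It measured 4.16, 4.04 and 3.77 CPM in control, 4.85, 3.21 and 4.17 CPM in unloaded and 4.2, 3.49 and 3.42 CPM in reloaded muscle in the mKO genotype. Anln in flox measured 4.17, 2.95 and 3.13 CPM in control, 4.59, 3.78 and 4.64 CPM in unloaded and 9.12, 10.5 and 8.95 CPM in reloaded muscle. As with Smc4, the 15 libraries outside flox reloading overlapped one another and flox reloading stood alone. In mKO it changed by -0.14 ± 0.16, not called (adjusted p = 0.604), and in flox it rose by 1.13 ± 0.16 (adjusted p = 3.68e-05). The genotype difference was -1.36 ± 0.16 (adjusted p = 0.000408). Prc1 differed by -1.65 ± 0.19, Kif23 by -1.85 ± 0.26, Kif20a by -1.17 ± 0.24 and Racgap1 by -1.13 ± 0.22, all called.

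Reloading was next set against control, to see whether the members were above the level of mice that were never unloaded. In mKO 6 of 50 were higher and 0 lower, where 1.34% of all tested genes were called higher and 0.841% lower. In flox 49 of 50 were higher and 0 lower, where 12.3% of all tested genes were called higher and 10.3% lower, and only Spc24 was not called. The medians were 0.91 in mKO and 2.77 in flox. The 6 called in mKO were Ccna2 at 1.33 ± 0.28, Foxm1 at 1.39 ± 0.35, Ndc80 at 1.69 ± 0.37, Kif11 at 1.41 ± 0.35, Spag5 at 1.01 ± 0.24 and Kif23 at 1.16 ± 0.29. In flox the same 6 genes rose by 4.06 ± 0.29, 3.78 ± 0.36, 3.40 ± 0.36, 2.44 ± 0.34, 0.98 ± 0.23 and 3.29 ± 0.29, so Spag5 alone of these 6 had an estimate as large in mKO. In every mKO reloading library 31 members stood above every mKO control library, where 10.0% of all tested genes did. The count of 6 was unstable, at 0 without mKO control replicate 3 or mKO reloading replicate 2, 1 without mKO control replicate 1, 2 without mKO reloading replicate 1, 3 without mKO control replicate 2 or flox reloading replicate 1 or 2, and 10 without flox unloading replicate 3. Unfiltered, it was 21, with DESeq2 11 (3.28% of all genes it tested), and 3 when only the compared groups were fitted.

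Unloading against control asked whether disuse lowers the members. In mKO 10 of 50 were lower and 0 higher, where 3.66% of all tested genes were called lower and 4.09% higher. In flox 0 were lower and 1 was higher, where 3.07% of all tested genes were called lower and 2.67% higher. DESeq2, which tested 48 of the 50, called 11 lower in mKO (6.17% of all genes), and 1 lower and 1 higher in flox (5.47% and 4.99%). An unadjusted edgeR p under 0.05 was found for 21 members in mKO and 7 in flox. The share of all tested genes under that threshold was not computed, here or for the unadjusted counts further on. The medians were -0.64 in mKO and -0.21 in flox. The 10 that fell in mKO were Cdk1, Pbk, Cenpa, Cenpe, Cenpf, Ncapg, Smc2, Top2a, Mki67 and Kif20a. Mki67 measured 0.437, 0.569 and 0.598 CPM at mKO unloading and 1.67, 2.82 and 2.12 CPM at mKO control, with no overlap, and fell by 2.04 ± 0.48 (adjusted p = 0.0145). In flox it measured 0.453, 0.434 and 2.43 CPM at unloading and 1.47, 1.44 and 0.9 CPM at control, and the change of -0.20 ± 0.45 was not called (adjusted p = 0.862). The third flox unloading library lay above all 3 flox controls and the other 2 below them. Top2a fell by 1.75 ± 0.45 in mKO (adjusted p = 0.024), Cenpa by 0.71 ± 0.18 (adjusted p = 0.0198) and Smc2 by 0.72 ± 0.18 (adjusted p = 0.024). Fibro-adipogenic progenitor markers also summed lower, to 998 to 1239 CPM at mKO unloading, against 1580.4 to 2118 CPM at mKO control. In flox they did so too, with 1099 to 1254 CPM at unloading and 1587 to 1872 CPM at control, and 4 of 8 were called lower in each genotype. The collagen genes Col1a1 and Col3a1 are among these markers. Col1a1 had 18036, 24946 and 26466 counts at mKO control and 2432, 6104 and 5322 at mKO unloading. Dcn, another of these markers, had 24505, 29590 and 33285 counts at mKO control and 27808, 28145 and 26073 at mKO unloading, which overlap. Cd34 had 4197, 4687 and 4719 counts at mKO control and 3228, 3154 and 3092 at mKO unloading, which do not overlap. Dpt had 3559, 4122 and 4820 counts at mKO control and 2733, 2788 and 2652 at mKO unloading, without overlap either. These markers did not all move alike, and whether their sum follows cell number was not tested. Tendon cell markers summed to 254 to 385 CPM at mKO unloading and 472 to 684 CPM at mKO control, and to 356 to 426 CPM at flox unloading and 453 to 793 CPM at flox control, with 3 of 5 called lower in mKO and 1 of 5 in flox. Erythroid markers summed to 55.8 to 80.9 CPM at mKO unloading and 82.2 to 106 CPM at mKO control, while their flox ranges overlapped, at 58.5 to 95.6 CPM at unloading and 53.8 to 104 CPM at control. Macrophage marker sums overlapped in mKO, at 82.1 to 128 CPM at unloading and 104 to 157 CPM at control. The part of these markers in the result was not tested.

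Pbk was at 0 in all mKO unloading libraries and had 8, 14 and 16 counts at mKO control. Against a floor of 3 counts over the group it was at least 12-fold lower at unloading, if each count is a separate fragment. Tpx2, the 1 called in flox, measured 5.85, 5.71 and 4.74 CPM at flox unloading and 2.11, 2.84 and 2.54 CPM at flox control, without overlap, and rose by 1.12 ± 0.22 (adjusted p = 0.00713). The mKO count of 10 went to 1 without mKO unloading replicate 3, 2 without mKO control replicate 2, 3 without mKO unloading replicate 1, 5 without mKO control replicate 3, and 3 when only the compared groups were fitted. In flox the count of 1 became 3 without flox unloading replicate 3, 2 without mKO unloading replicate 2 or 3, and 4 with no low-count filter.

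The genotypes were also set against each other before reloading. At unloading 0 of 50 members were called by edgeR or by DESeq2, 5 had an unadjusted edgeR p under 0.05, and the median difference was -0.12. At control 0 of 50 were called by either tool, 6 had an unadjusted p under 0.05, and the median difference was 0.20. In both conditions 0.0% of all tested genes were called, and the share with an unadjusted p under 0.05 was not computed. At control 10 members had every mKO library above every flox library and 0 the reverse, where 4.82% and 4.97% of all tested genes did. Those 10 were Nuf2, Cenpf, Tpx2, Ccna2, Smc2, Ncapg, Mki67, Birc5, Ccnb1 and Espl1, and Tpx2 had the lowest p of them, with a difference of 0.73 ± 0.22 (adjusted p = 1).

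**Figure D4:**
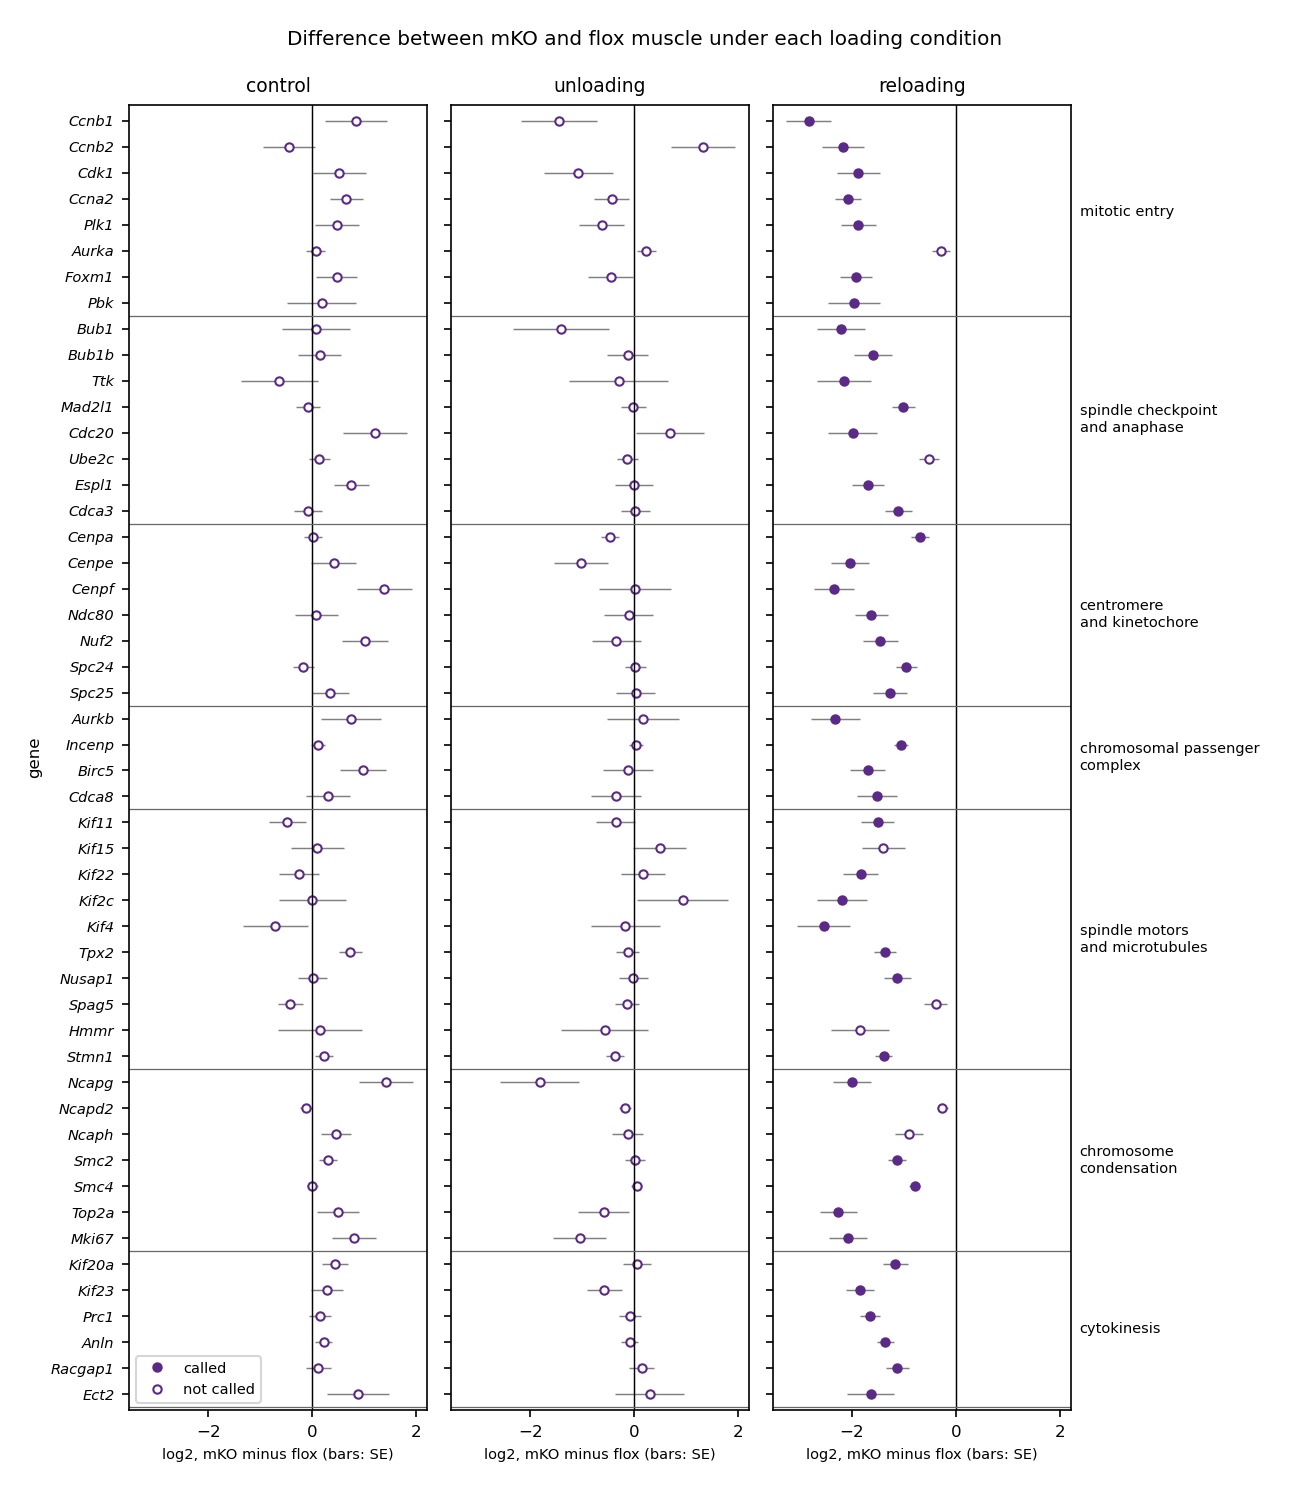
Difference between mKO and flox muscle for each member at control, unloading and reloading, as log2 mKO minus flox with its standard error, filled where edgeR called it. Points lie on both sides of 0 at control and unloading, and all 50 lie left of 0 at reloading. Pbk is not drawn at unloading because its 3 mKO libraries were at 0.

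Whether the response to reloading itself differed between the genotypes was tested as an interaction, the change in mKO minus the change in flox. Against control, 18 of 50 members had a smaller change in mKO and 0 a larger one, where 0.499% of all tested genes were called smaller and 0.0224% larger. The median interaction was -1.76, and 49 of 50 estimates were below 0, Spag5 being the exception. The 18 were Ccnb1, Ccna2, Foxm1, Espl1, Cenpf, Incenp, Birc5, Tpx2, Stmn1, Ncapg, Smc2, Smc4, Top2a, Mki67, Kif20a, Kif23, Prc1 and Anln, so each of the 7 roles held at least 1. Cenpf had the largest estimate, -3.73 ± 0.65 (adjusted p = 0.0276), and Smc4 the smallest, -0.80 ± 0.15 (adjusted p = 0.0342). Anln stood at -1.58 ± 0.23 and Tpx2 at -2.09 ± 0.31 (adjusted p = 0.0129 and 0.0129). The count was 0 without flox reloading replicate 1, 4 without mKO control replicate 2, mKO reloading replicate 3, flox control replicate 2 or flox reloading replicate 2, 5 without mKO reloading replicate 1 or flox control replicate 3, 6 without mKO control replicate 3 and 7 without flox control replicate 1. Unfiltered, it was 35.

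Against unloading, 0 of 50 interactions were called by edgeR, where 0.0% of all tested genes were called. DESeq2 called 10 of 50, all with a smaller change in mKO (0.742% of all genes), and 34 members had an unadjusted edgeR p under 0.05. The median was -1.24, and 49 of 50 estimates were below 0, Pbk being the exception for which mKO unloading was at 0. The edgeR count became 1 when mKO unloading replicate 3 was left out and 4 when mKO reloading replicate 2 was. Unfiltered, edgeR called 24 of 50. The lowest p belonged to Anln at -1.27 ± 0.23, Incenp at -1.10 ± 0.20 and Smc4 at -0.84 ± 0.15 (adjusted p = 0.0671, 0.0671 and 0.0671). For unloading against control 0 of 50 interactions were called by either tool, and 10 had an unadjusted p under 0.05. For these unadjusted counts, 34 and 10, the share of all tested genes was not computed. The 3 interactions share libraries, and so do the comparisons above that have a group in common.

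On the log2 scale, members with a low resting level changed most. Per kilobase of exon, levels at flox control ran from 0.0109 CPM for Cenpf to 2.28 CPM for Smc4. The 10 members with the highest control level per kilobase (Smc4, Ncapd2, Aurka, Stmn1, Ube2c, Incenp, Spag5, Spc24, Cenpa and Smc2) had a median change of 1.11 from unloading to reloading in flox. The 10 with the lowest (Cenpf, Ncapg, Ttk, Bub1, Ccnb1, Ndc80, Hmmr, Nuf2, Kif2c and Kif15) had a median of 4.45. Across the 50 genes Spearman's rho between control level per kilobase and that change was -0.816. In CPM the order was mixed. From flox unloading to flox reloading the mean of Smc4 went from 11.6 to 20.4 CPM and that of Ttk from 0.0547 to 1.32 CPM. Cenpf went from 0.116 to 4.81 CPM and Spc24 from 1.28 to 2.23 CPM. This is a description across genes that share libraries. The control libraries do not enter the change, but a low base makes a log2 change large for a given rise in CPM.

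The rest of the division machinery gave the members a setting. Of 58 other mitosis genes, among them Ncapg2, Ckap2, Aspm and Sgo1, 20 rose and 2 fell at reloading in mKO and 43 rose and 2 fell in flox, with medians of 0.67 and 1.63. Over all tested genes 9.53% rose and 8.81% fell in mKO, and 17% rose and 14.9% fell in flox. At reloading 23 of the 58 were lower in mKO and 1 higher, with a median difference of -0.99, where 3.85% of all tested genes were lower and 1.06% higher. Ncapg2, a condensin subunit, measured 4.3, 3.58 and 3.24 CPM at mKO reloading and 6.98, 8.99 and 6.88 CPM at flox reloading, without overlap, a difference of -1.04 ± 0.16 (adjusted p = 0.00162). Ckap2, a spindle protein, differed by -1.52 ± 0.32 (adjusted p = 0.0112). Of 22 DNA replication genes 8 rose in mKO and 14 in flox, and 11 were lower in mKO at reloading, such as the helicase subunits Mcm3 at -0.74 ± 0.11 and Mcm5 at -1.47 ± 0.25.

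Regulators upstream of mitosis were also measured. At reloading against unloading 9.53% of all tested genes rose and 8.81% fell in mKO, and 17% rose and 14.9% fell in flox. Between genotypes at reloading 3.85% were lower in mKO and 1.06% higher. Of 16 G1 cyclin and E2F genes 5 rose in mKO and 12 in flox, and 2 were lower in mKO at reloading. Ccnd1, the cyclin that answers growth signals, measured 13.6, 15.1 and 14.9 CPM at mKO reloading and 19.5, 17.9 and 15.2 CPM at flox reloading, and the difference of -0.27 ± 0.15 was not called (adjusted p = 0.346). E2f1, a transcription factor of the replication genes, was lower in mKO (log2 difference -1.38 ± 0.24, adjusted p = 0.00394). Of 11 DREAM and pocket protein genes, which repress cell cycle genes in resting cells, 3 fell in mKO and 3 rose and 3 fell in flox, Rbl2 falling by 0.60 ± 0.09 in mKO and 0.81 ± 0.09 in flox, and Tfdp2 by 0.73 ± 0.13 and 0.93 ± 0.13. Among the 6 tested CDK inhibitor genes 3 fell in mKO and 1 in flox, Cdkn1b falling by 0.44 ± 0.08 in mKO and 0.70 ± 0.08 in flox, while Cdkn1a fell by 0.86 ± 0.24 in mKO and its change of -0.47 ± 0.24 in flox was not called. For the anaphase promoting complex, on which Cdc20 and Ube2c act, 16 genes were listed, the core subunits together with Fzr1 and Ube2s. Of these 16, 0 were higher and 2 lower in mKO, and 2 were higher and 3 lower in flox. Such counts are near the shares of all tested genes, so they are not read as a trait of the list. The same holds for the 1 CDK inhibitor called in flox. In both genotypes 2 subunit genes fell, Anapc5 by 0.51 ± 0.08 in mKO and 0.78 ± 0.08 in flox, and Anapc16 by 0.41 ± 0.08 in mKO and 0.62 ± 0.08 in flox. Anapc5 was the 1 gene of the 16 that was called higher in mKO at reloading, by 0.27 ± 0.08 (adjusted p = 0.0474).

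Markers of cell types that could divide were set beside the members. Macrophage markers (10 genes, with Adgre1, Cd68 and Csf1r among them) summed to between 129 and 179.7 CPM at mKO reloading, against 260.3 to 385 CPM at flox reloading, and the other flox libraries held 115 to 145 CPM. At reloading against unloading 3 of 10 macrophage markers rose in mKO and 9 of 10 in flox, and 8 of 10 were lower in mKO at reloading. Of all tested genes 9.53% rose in mKO and 17% in flox, and 3.85% were lower in mKO at reloading. Fibro-adipogenic progenitor markers summed to between 1790.3 and 2202 CPM at mKO reloading and 2408 to 3435 CPM at flox reloading, with 3 of 8 lower in mKO. Of these, Col3a1 had 31258, 38263 and 23401 counts at mKO reloading and 57789, 84130 and 55348 at flox reloading. Dcn had 22489, 27085 and 24826 counts at mKO reloading and 19836, 31132 and 26269 at flox reloading, which overlap. Ly6a had 2354, 2962 and 2167 counts at mKO reloading and 3575, 4607 and 3574 at flox reloading, which do not overlap. Endothelial markers summed to between 330.2 and 365 CPM at mKO reloading and 382 to 434 CPM at flox reloading, with 1 of 7 lower in mKO. At reloading these marker sums, like the members, were higher in flox than in mKO. From mKO control to mKO unloading the mean fibro-adipogenic sum went from 1884 to 1090 CPM and the members from 86.6 to 73.8 CPM. From flox control to flox unloading the mean fibro-adipogenic sum went from 1696 to 1165 CPM, and the members held 79.7 and 79.4 CPM. In the 3 flox unloading libraries the members held 72.8, 75.2 and 90.3 CPM, so that mean rests on replicate 3. Macrophage sums at mKO reloading overlapped those at mKO control (104 to 157 CPM), while the member sums did not. The part of these cell types in the result was not tested.

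Satellite cell and myoblast markers summed to 60.9 to 85.0 CPM at mKO reloading and 77.5 to 92.6 CPM at flox reloading, which overlap, with 1 of 8 lower in mKO (3.85% of all tested genes). The sum mixes markers that did not move alike. Myog had 337, 957 and 351 counts at mKO reloading and 1447, 1276 and 933 at flox reloading, after 248, 275 and 293 at flox unloading. Pax7 had 214, 251 and 303 counts at mKO reloading and 147, 239 and 236 at flox reloading. Lymphocyte markers summed to at most 2.57 CPM in any library. Neutrophil markers summed to at most 2.69 CPM at flox reloading, and their highest value, 9.09 CPM, was in flox unloading replicate 3, which also held the highest values of 37 members in that group. The neutrophil marker Ly6g was at 0 in every library outside flox unloading. Erythroid, pericyte and smooth muscle, Schwann cell, tendon cell, lymphocyte and neutrophil markers had median differences between -0.61 and 0.27 between mKO and flox at reloading. Muscle fibre markers summed to 131022 to 157693 CPM at mKO reloading and 115806 to 129989 CPM at flox reloading, without overlap. The estimates of all 8 were above 0, with a median of 0.27, 1 of 8 was called higher in mKO (1.06% of all tested genes) and 4 had an unadjusted p under 0.05. Their part in the members' genotype difference was not tested.

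**Figure D5:**
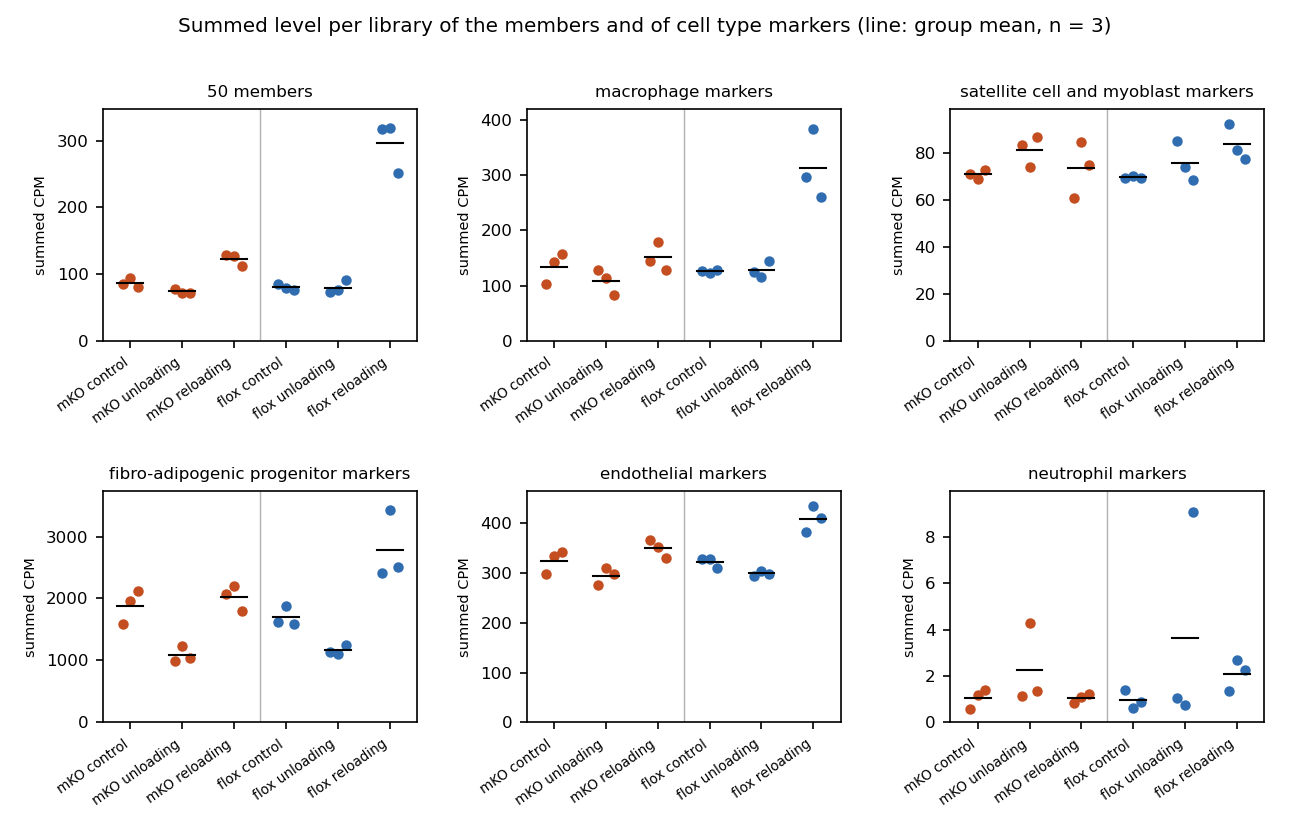
Summed CPM per library of the 50 members and of the markers of 5 cell types (points, mKO orange and flox blue, with the mean of 3 as a line), on linear axes that start at 0. The member and macrophage sums are highest in flox reloading with mKO reloading well below, the fibro-adipogenic and endothelial sums differ by less, and the satellite cell sums of the 2 reloading groups overlap.

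The authors' deposited tables of fold changes were set beside these results. Across 30875 genes the p-values of the authors' deposited table named for mKO reloading against control matched those of the interaction of reloading minus control in a DESeq2 fit to the counts (r = 0.999 on the -log10 scale), so it holds the difference of changes between genotypes. In that table of the authors, as deposited, 27 of 50 members were lower and 0 higher at an adjusted p under 0.05, where 2.11% of all genes with an adjusted p were lower. Of its 50 genes with the lowest p, 15 were members, led by Anln and Tpx2. In the authors' deposited table named for reloading against unloading, which matched the other interaction in the same way (r = 0.999), 10 of 50 members were lower and 0 higher, where 0.729% of genes were lower and 0.0904% higher. The authors' deposited table named for unloading against control matched the interaction of unloading minus control (r = 0.998), so it too holds a difference of changes and not the change in mKO alone, and 0 of 50 members passed in it. The authors' deposited table named for mKO control against wild-type control matched mKO minus flox at control, and 0 of 50 members passed there.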

How the data were processed

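Polyadenylated RNA from mouse gastrocnemius was measured in 18 libraries, 3 in each of 6 groups, and groups were taken from the sample labels. Counts per gene were deposited by the authors, made with featureCounts 1.6.4 on Ensembl release 94, per the file headers. STAR 2.7.3a, featureCounts 2.0.3 and GRCm38.p6 are named in the submitters' processing notes. The authors' deposited comparison tables hold log2 fold changes, p-values and a mean normalised signal per gene from DESeq2, per the file headers, and their p-values and the sign of their log2 fold changes were used.

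From the deposited counts, genes were filtered with filterByExpr, scaled by TMM and fitted in edgeR 4.0.16 (R 4.3.3, limma 3.58.1) with 1 mean per group over all 18 libraries, which left 12 residual degrees of freedom. The quasi-likelihood F test was applied to 12 contrasts, with Benjamini-Hochberg adjustment over 17833 genes and a threshold of 0.05. Totals of 45069595 to 51592566 counts set the depth, and floors of 3 counts over a group cover counting error only and take each count as a separate fragment. No pair of libraries within a group was a duplicate, and pairs between groups were not compared. The script was tested on simulated data.

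The members and the other lists were chosen with earlier results of these data known. The genes described were, in each role, those with the largest and the smallest flox change from unloading to reloading and the highest mean CPM, the 3 with the lowest p in the interaction of reloading minus unloading and the 3 with the lowest mean CPM, with 2 genes per other list by lowest p in flox and a few others named for a stated feature after their values were seen. Alternatives were DESeq2 1.42.0 scaling factors, scaling by total counts, omission of the low-count filter, a minimum of 1 CPM in 3 libraries, the replicate number as a block, DESeq2 itself, the compared groups alone and each library left out. Promoter windows came from RefSeq.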

Additional observations from a re-analysis of the deposited data

Results flagged for a closer look

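The change from control to reloading differed between the genotypes for 18 of the 50 members and for Ckap2, a spindle gene outside the 50, by a test of the difference itself (edgeR interaction, adjusted p under 0.05 over all tested genes). Values are log2 changes in mKO minus log2 changes in flox with their standard errors, and all are below 0. Among mitotic entry genes the values were Ccnb1 at -3.67 ± 0.73, Ccna2 at -2.73 ± 0.41 and Foxm1 at -2.39 ± 0.50. Espl1, which encodes separase, stood at -2.44 ± 0.45 and Cenpf at -3.73 ± 0.65. In the chromosomal passenger complex Incenp stood at -1.17 ± 0.20 and Birc5 at -2.67 ± 0.56. Among spindle genes the values were Tpx2 at -2.09 ± 0.31, Stmn1 at -1.61 ± 0.24 and Ckap2 at -2.67 ± 0.53. In chromosome condensation they were Ncapg at -3.42 ± 0.64, Smc2 at -1.43 ± 0.25, Smc4 at -0.80 ± 0.15, Top2a at -2.76 ± 0.53 and Mki67 at -2.86 ± 0.55. For cytokinesis they were Kif20a at -1.60 ± 0.35, Kif23 at -2.13 ± 0.41, Prc1 at -1.79 ± 0.29 and Anln at -1.58 ± 0.23. Adjusted p ran from 0.0129 for Anln, Ccna2, Tpx2 and Stmn1 to 0.0456 for Kif20a. For Kif20a, 33.2% of the exon bases are shared with Cdc23. Of the 18 member calls, 0 were kept whichever single library was left out. At control every mKO library lay above every flox library for Ccnb1, Ccna2, Espl1, Cenpf, Birc5, Tpx2, Ncapg, Smc2 and Mki67. The control level enters these interactions, and 0 of the 50 members were called between genotypes at control.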

How the results depend on the processing

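The direction of every called member was kept under all 7 alternatives and all 18 fits without 1 library, with 0 reversals. At reloading against unloading, 48 of 49 flox calls and 21 of 35 mKO calls held without each library in turn, and all 49 flox calls against control did. With no low-count filter the members called were 21 for mKO reloading against control, 4 for flox unloading against control, 2 for mKO against flox at unloading, 2 at control, and 24, 35 and 2 for the interactions of reloading minus unloading, reloading minus control and unloading minus control. With DESeq2 they were 11 for mKO reloading against control, 2 for flox unloading against control and 10 for the interaction of reloading minus unloading. With only the compared groups they were 3 for mKO reloading and 3 for mKO unloading, each against control. Without 1 library the count ran from 0 to 10 for mKO reloading against control, 1 to 10 for mKO unloading against control, 1 to 3 for flox unloading against control, 17 to 46 for mKO against flox at reloading, 0 to 4 for the interaction of reloading minus unloading and 0 to 22 for that of reloading minus control. The cause was not tested. Total-count scaling moved the median of all genes by -0.13 for mKO against flox at reloading, 0.15 for flox reloading against control, 0.11 for flox reloading against unloading and -0.13 for the interaction of reloading minus control, and called 47, 50, 49 and 24 members. Shares over all genes are given above for the main fit and DESeq2 only, so member counts under the other settings have no background beside them. Low counts limit the rarest members.

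With the replicate number as a block, the interaction of reloading minus unloading had 1 member called, and that of reloading minus control 19. The other counts stayed within 1.5 times. Correlations of same-numbered deviations ran from -0.074 to 0.126, so the numbers were not taken to pair the samples.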
